A study of Caenorhabditis elegans with 6 samples.

Results

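The genes described here encode 4 kinds of peptidase of Caenorhabditis elegans: the aspartyl proteases named asp, the cathepsins of the papain type named cpr, cpl and cpz, the neprilysins named nep, and the dipeptidyl peptidase IV family named dpf. Members were the genes whose symbol has one of these stems and a number in the annotation of the array, measured by a probe set annotated to that gene alone. A probe set is a group of short oligonucleotides on the array that report on 1 transcript. Where a gene has more than 1 probe set, the one with the highest mean over the 6 arrays stands for it. This gave 58 of the 17138 genes measured in this way, namely 15 asp genes, 11 cathepsin genes, 25 nep genes and 7 dpf genes. asp-2, asp-16, asp-18 and nep-15 also have such symbols in RefSeq and were not analysed here, the last because its probe set also names F40B5.2.

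The study asked which genes respond to an activated form of the beta-catenin BAR-1, the effector of a Wnt signal that lets POP-1/TCF switch target genes on. hs::ΔNTbar-1 animals (strain KN53) carry the transgene array huIs7, which holds a heat shock promoter driving a Myc-tagged, truncated BAR-1 together with mec-7::GFP and dpy-20(+). hs::control animals carry the array deIs14, made in dpy-20(e1282) mutants from the empty heat shock vector with mec-7::GFP and dpy-20(+). Both strains were heat-shocked near the molt from the second to the third larval stage, and RNA of whole worms from 3 samples of each, which the methods describe as biological replicates, was hybridized to 1 array per sample. There is 1 strain per condition, each with a different integrated transgene, and every sample was heat-shocked. A response to the truncated BAR-1 and any other lasting difference between these strains cannot be told apart.

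Aspartyl proteases resemble pepsin and cathepsin D and cut proteins with a pair of aspartates, mostly in the gut lumen and in lysosomes. Papain-type cathepsins use a cysteine, and in C. elegans they act in the gut, in yolk processing and at the molts. Neprilysins are zinc peptidases, most of them anchored in the cell membrane with the active site outside, and are best known for the inactivation of neuropeptides. Enzymes of the dipeptidyl peptidase IV family are serine peptidases, and the mammalian enzyme that names the family takes dipeptides ending in proline from the start of a peptide.

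The study's PCR primers for asp-8 and dpf-4, 2 of the 4 genes that passed the test below, are shown because they are the oligonucleotides that the study made for these transcripts. They are not the probes behind the array signals. The study measured most of its up-regulated genes again by PCR, and its table of the genes kept holds neither asp-8 nor asp-12. It did not follow up its down-regulated genes. asp-8 lies on chromosome V and dpf-4 on chromosome III. The sequences are written 5′ to 3′ and all lower case.
asp-8 forward: cagaaacgaccatccccgaca
asp-8 reverse: tattctactgctctgacgttgtacg
dpf-4 forward: tcatctggagggtatctgattctg
dpf-4 reverse: tcttcgtaaatgctcgcttg
The asp-8 pair is 21 and 25 bases long with 57.1% and 44% G and C, and the dpf-4 pair 24 and 20 bases with 45.8% and 45%.

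The deposited values are MAS 5 signals, a linear measure of hybridization scaled to the same trimmed mean on every array. Signals are compared here between samples of 1 probe set and never between genes, since probe sets differ in how brightly they bind. bar-1, the gene on the transgene, had signals of 7755, 20991 and 16009 in hs::ΔNTbar-1 replicates 1, 2 and 3, against 586, 519.5 and 575 in hs::control replicates 1, 2 and 3, so that each array lay on the side its label gives. Array medians were 134 to 145 in hs::ΔNTbar-1 and 131 to 143 in hs::control. The log2 signals of array pairs correlated across probe sets at 0.979 to 0.981 within a strain and at 0.973 to 0.976 between strains. Summed marker signals of the pharynx were lower (16388 to 18254 in hs::ΔNTbar-1, against 20406 to 21843 in hs::control, 6 genes) and those of the hypodermis higher (15594 to 17727 in hs::ΔNTbar-1, against 13325 to 14106 in hs::control, 8 genes). Those of the intestine overlapped (33084 to 37185 in hs::ΔNTbar-1, against 36454 to 37711 in hs::control, 10 genes). Such sums weigh bright probe sets most. In the hypodermis list 5 genes had a log2 fold change above 0 and 3 below. There rol-6 was at 0.58, wrt-2 at 0.55 and che-14 at 0.35, but elt-3 at -0.56, each without overlap of the groups. In the pharynx list 1 gene was above 0 and 5 were below. In none of the 7 marker lists (intestine, hypodermis, body wall muscle, pharynx, neurons, germ line and sperm) did a gene pass the test below, and 11 of their 52 genes had an unadjusted p of at most 0.05, where 13.9% of all genes did (0 met the 2-fold criteria below). Their median log2 fold changes ran from -0.16 for the pharynx to 0.21 for the hypodermis. The part of cell composition in the results was not tested, and in RNA of whole worms fewer cells of a type and less RNA per cell cannot be told apart.

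Of the 58 peptidase genes, 4 passed the test between the strains. asp-12 and asp-8 were higher and nep-22 and dpf-4 were lower in hs::ΔNTbar-1 animals. The test was limma's moderated comparison on log2(signal + 16) over all 22548 probe sets that are not Affymetrix controls, at an adjusted p under 0.05, and the added 16 makes the fold changes of dim probe sets understated. The 2 higher genes are 3.45% of the members, where 0.443% of all genes measured were higher, and the 2 lower genes are 3.45%, where 0.286% were lower. In either direction 4 of 58 (6.9%) passed, against 0.729% of all genes. The paper lists all 4 from these same arrays, and the members were chosen with earlier results known. These shares are therefore a description, and the excess was not tested. The 2 sets differ in brightness, since 37.9% of members had a mean signal of at least 1000, against 14.9% of all genes. At that signal 1 of 22 members passed as higher and 2 as lower, where 17 and 16 of 2554 genes did. The same 4 genes met the study's criteria as applied here (at least 2-fold, p of at most 0.05 in an analysis of variance and at least 2 of 3 arrays on one side of the control mean), asp-8 only just on the 2-fold limit. The study took its statistics from RMA values and its agreement between replicates from change calls, and here both came from log2(signal + 16), so this is not the study's own selection. These criteria were met by 0.782% of all genes as higher, 0.572% as lower and 1.35% in either direction. At an unadjusted p of at most 0.05 there were 6 higher and 5 lower members, where 7.25% of all genes were higher and 6.69% lower. With 3 arrays against 3, an exact permutation test cannot give a p below 0.1, so the fit across all probe sets carries the calls.

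**Figure D1:**
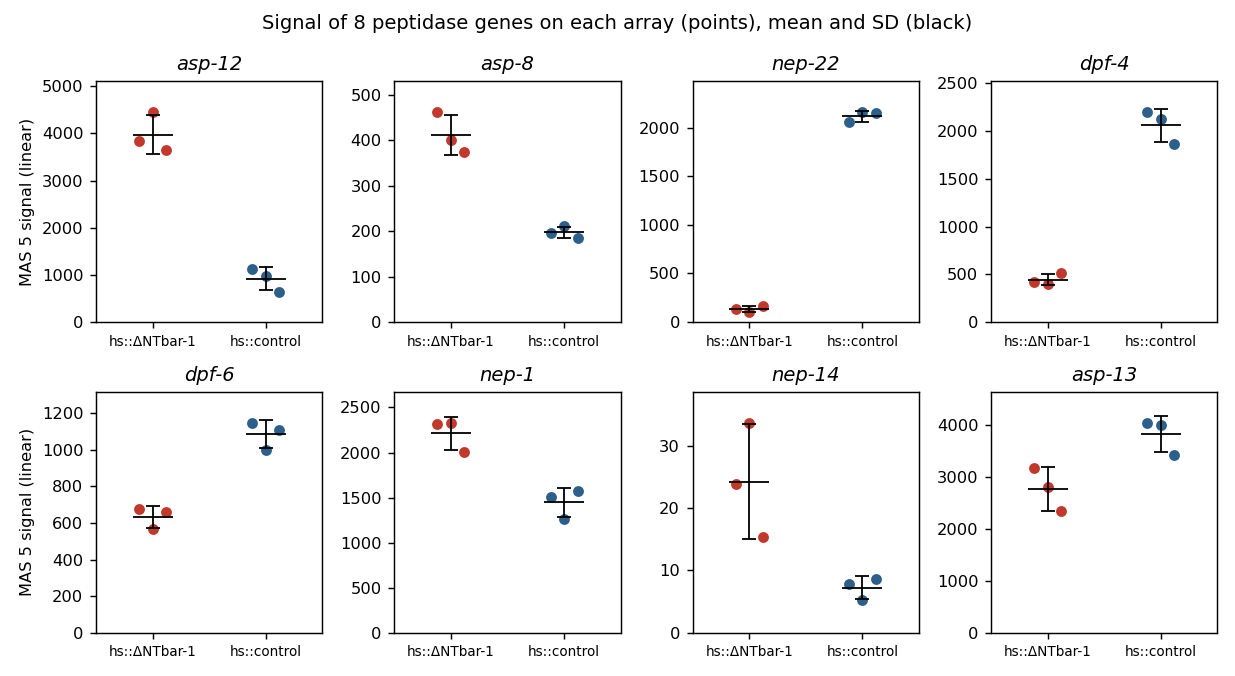
MAS 5 signal (linear axis from 0) of 8 peptidase genes on each array, with 3 hs::ΔNTbar-1 arrays in red on the left and 3 hs::control arrays in blue on the right of each panel, in replicate order; bars are the mean and SD. The groups do not overlap in any panel, and the ratio between them is widest for nep-22, at 137 ± 30.1 in hs::ΔNTbar-1 against 2117 ± 56.2 in hs::control.

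The remaining 54 genes did not pass, and their log2 fold changes ran from -0.76 for dpf-6 to 0.77 for nep-14. The median over all 58 members was 0.03, with 32 above 0 and 26 below, and the median over all genes was 0.00061. Of the members, 44 (75.9%) had an absolute log2 fold change under 0.5, against 87.4% of all genes. The 3 hs::ΔNTbar-1 arrays lay entirely above the 3 hs::control arrays for 9 members (15.5%) and entirely below for 9 (15.5%), where this held for 11% and 10.5% of all genes. This share depends on brightness. With a mean signal of at least 1000, 444 of 2554 genes lay above and 543 below, and 5 and 6 of 22 members. With a mean signal under 100, 417 of 7676 genes lay above and 437 below, and 1 and 0 of 22 members. A change of at least 1.5-fold without overlap was seen for 7 members, the 4 above with nep-1, nep-14 and dpf-6, and for 5.47% of all genes.

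**Figure D2:**
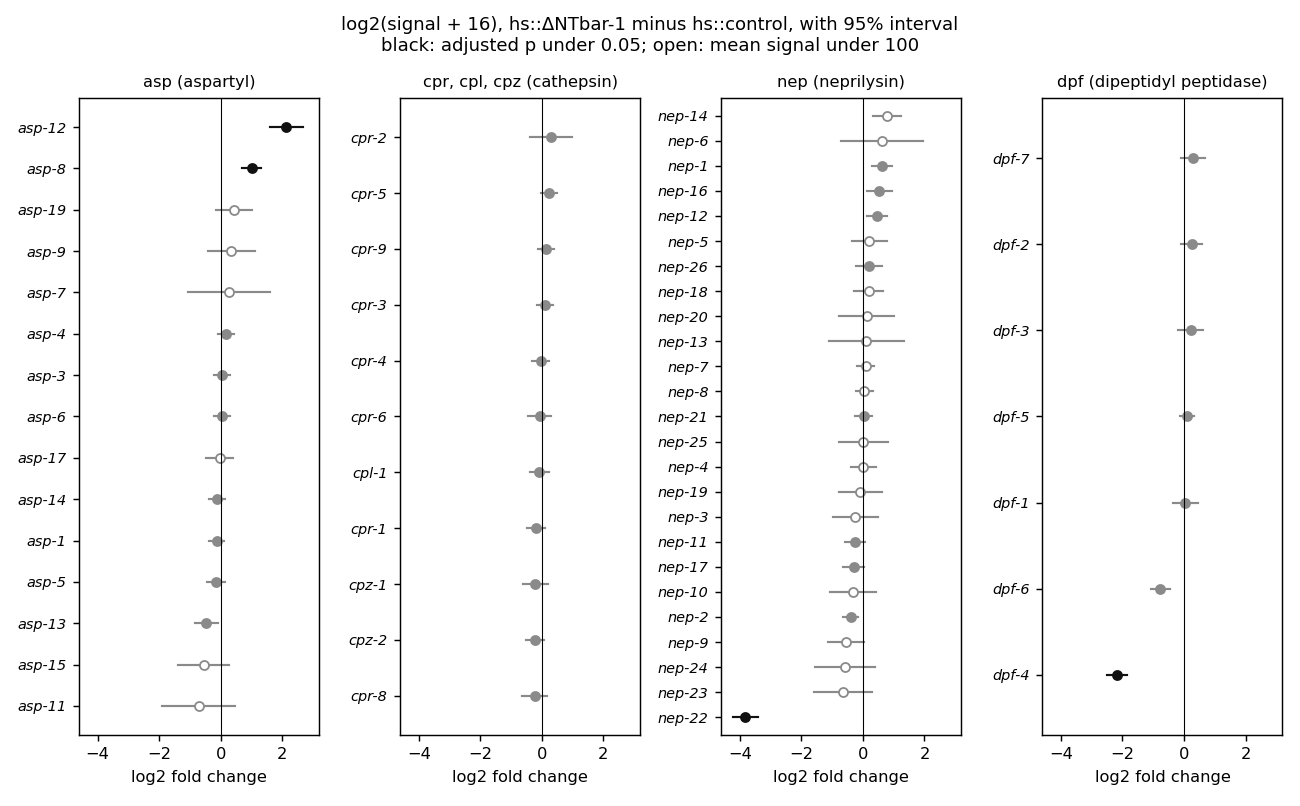
Log2 fold change of each of the 58 peptidase genes, hs::ΔNTbar-1 minus hs::control, on the log2(signal + 16) scale with its 95% interval, in 1 panel per family and sorted from high to low. Black points passed at an adjusted p under 0.05, grey points did not, and open points have a mean signal under 100; asp-12, asp-8, nep-22 and dpf-4 are black, and all 11 cathepsin genes lie within 0.5 of 0.

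The asp family held both genes that were higher. asp-12 (F21F8.4) had signals of 3843, 4442 and 3638 in hs::ΔNTbar-1 replicates 1, 2 and 3, against 1125, 976.5 and 649 in hs::control replicates 1, 2 and 3. All 3 hs::ΔNTbar-1 arrays were more than 3 times as bright as any hs::control array. The means were 3974 ± 418 in hs::ΔNTbar-1 and 917 ± 244 in hs::control (SD, n = 3 arrays each), a log2 fold change of 2.13 (standard error 0.22, 95% interval 1.60 to 2.66, adjusted p = 0.0166, limma), or 4.37-fold. The call held without hs::control replicate 3, the lowest of its group (adjusted p = 0.0365), and was lost without any 1 of the other 5 arrays (0.052 to 0.0946), with the log2 fold change between 1.90 and 2.29.

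asp-8 (F59D6.3), the other asp gene that was higher, had signals of 461, 399.7 and 375 in hs::ΔNTbar-1, against 196, 211 and 185 in hs::control. The lowest hs::ΔNTbar-1 array was well above the highest hs::control array. The means were 412 ± 44.3 in hs::ΔNTbar-1 and 197 ± 12.7 in hs::control (SD, n = 3 arrays each), a log2 fold change of 1.0 (standard error 0.12, 95% interval 0.70 to 1.30, adjusted p = 0.0322, limma). This call was near the threshold, since leaving out any 1 of the 6 arrays moved the adjusted p to between 0.0854 and 0.127, with log2 fold changes of 0.92 to 1.06.

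The best-known aspartyl proteases had nearly the same signal in both strains. asp-1, a gut aspartyl protease, had signals of 27444, 25644 and 26124 in hs::ΔNTbar-1, against 29543.5, 28702 and 28292 in hs::control, a log2 fold change of -0.13 (adjusted p = 0.643, limma). The groups did not overlap, though the difference was small. asp-3 and asp-4, cathepsin D-like enzymes known in C. elegans for their part in necrotic death of neurons, had log2 fold changes of 0.04 (95% interval -0.21 to 0.29) and 0.17 (-0.08 to 0.42). For asp-4 the groups did not overlap (5947, 5456 and 5830.3 in hs::ΔNTbar-1, against 5237, 5134 and 4915 in hs::control), and its second probe set gave -0.08 with groups that did. asp-6 (18742, 18653 and 19323 in hs::ΔNTbar-1, against 17162, 19387.5 and 18721 in hs::control) was at 0.04, and its second probe set at -0.06. asp-5 was at -0.15 and -0.10 by its pair of probe sets.

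asp-13 had the lowest log2 fold change among asp genes with a mean signal of at least 100, with signals of 3172, 2798.5 and 2339 in hs::ΔNTbar-1, against 4035, 4001.5 and 3424 in hs::control. The groups did not overlap, and the difference of -0.47 (95% interval -0.84 to -0.10) did not pass (adjusted p = 0.263, limma). asp-14 also had groups that did not overlap, at 2239, 1999 and 2116 in hs::ΔNTbar-1, against 2279, 2322 and 2296.5 in hs::control, with a difference of -0.12. The other 6 asp genes (asp-7, asp-9, asp-11, asp-15, asp-17 and asp-19) had a mean signal under 100. asp-11, which RefSeq lists as a pseudogene, had the lowest log2 fold change of the family at -0.72, with signals of 1.9, 18.7 and 2.4 in hs::ΔNTbar-1, against 2.9, 25.6 and 48.6 in hs::control, and overlapping groups. asp-17 had the smallest in size at -0.03 (8, 9.4 and 3.3 in hs::ΔNTbar-1, against 3.1, 7.9 and 11.5 in hs::control). Signals this low varied by several fold within a strain, and the 95% intervals of the 6 genes reached from -1.91 to 1.60. In all, 2 of 15 asp genes passed as higher and 0 as lower (1 at an unadjusted p of at most 0.05 and 0 by the study's criteria), with a median of 0.04.

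None of the 11 cathepsin genes passed limma's test, at 0 higher and 0 lower, and none had an unadjusted p of at most 0.05 or met the study's criteria. All were within 0.5 of 0, from -0.24 for cpr-8 to 0.30 for cpr-2, with a median of -0.08. Their 95% intervals together reached from -0.64 to 0.98, and no cathepsin gene had a mean signal under 100. cpl-1, the cathepsin L needed for yolk processing, embryogenesis and molting, had signals of 8669, 8574 and 7428 in hs::ΔNTbar-1, against 9521.5, 7967 and 8639 in hs::control. These overlapped, with a difference of -0.08 (95% interval -0.39 to 0.22). A second, dimmer probe set of cpl-1 gave 0.01, also with overlap.

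cpz-1, a cathepsin Z with a role in molting, was at -0.21 (95% interval -0.61 to 0.19), with signals of 2555.5, 2517 and 2019 in hs::ΔNTbar-1, against 3013, 2278 and 2936 in hs::control. The other cathepsin Z gene, cpz-2, had signals of 3764, 3095 and 3714.5 in hs::ΔNTbar-1, against 4313, 4046.5 and 3989 in hs::control. These groups did not overlap, and the difference was -0.23 (adjusted p = 0.486, limma). Among the cathepsin B-like genes, cpr-1, which is expressed in the gut, was at -0.19 (12652.5, 10682 and 11824 in hs::ΔNTbar-1, against 13317, 14387 and 12373 in hs::control). The closest to 0 was cpr-4 at -0.04, and cpr-6 was at -0.08; in both the groups overlapped.

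cpr-5 was the only cathepsin gene with every hs::ΔNTbar-1 array above every hs::control array, with signals of 13732.5, 13359 and 12997 in hs::ΔNTbar-1, against 11239, 12082 and 10652 in hs::control. Its log2 fold change was 0.24 (95% interval -0.02 to 0.50, adjusted p = 0.403, limma). cpr-8 lay below in the same way, at 650, 647 and 453 in hs::ΔNTbar-1, against 703, 674 and 665 in hs::control, with the third hs::ΔNTbar-1 array well under the others. cpr-3 and cpr-9 had differences of 0.10 and 0.12, and the second probe set of cpr-3 gave 0.25 with groups that overlapped. cpr-2 had the largest difference of the cathepsin genes, with a 95% interval of -0.38 to 0.98. The cystatins, small inhibitors of these cysteine peptidases, are encoded by cpi-1 and cpi-2. cpi-1 had signals of 1129.7, 1319.5 and 1352 in hs::ΔNTbar-1, against 1937, 1849.7 and 1726 in hs::control, and cpi-2 had 3829, 3976.5 and 3968 in hs::ΔNTbar-1, against 3668, 3200 and 3497 in hs::control. Neither pair of groups overlapped, and the differences pointed opposite ways, at -0.53 for cpi-1 (adjusted p = 0.15, limma) and 0.19 for cpi-2 (adjusted p = 0.517).

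The nep family held the member with the largest fold change. nep-22 (T25B6.2) had signals of 138.5, 106 and 166 in hs::ΔNTbar-1 replicates 1, 2 and 3, against 2053, 2155 and 2145 in hs::control replicates 1, 2 and 3. The hs::control arrays agreed closely, and every hs::ΔNTbar-1 array was at less than 0.1 of the dimmest of them. The means were 137 ± 30.1 in hs::ΔNTbar-1 and 2117 ± 56.2 in hs::control (SD, n = 3 arrays each), a log2 fold change of -3.82 (standard error 0.17, 95% interval -4.22 to -3.42, adjusted p = 0.000946, limma), or 14.2-fold lower. Among the 17138 genes, each by its brightest probe set, no other had a log2 fold change as low. Over all 22548 probe sets the lowest was -5.83, from a probe set that does not stand for a gene here. The call held with each array left out, at adjusted p values up to 0.0172. The probe set of nep-22 is of a type that Affymetrix marks as able to bind more than 1 transcript, as is the case for 19 members in all. nep-22 has no second probe set.

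No nep gene passed limma's test or met the study's criteria as higher. At an unadjusted p of at most 0.05, 4 of the 25 were higher and 2 lower, where 7.25% of all genes were higher and 6.69% lower. nep-1, which C. elegans expresses in the pharynx and in the head, had signals of 2314.5, 2326 and 2001 in hs::ΔNTbar-1, against 1508, 1259 and 1570.5 in hs::control. The groups did not overlap, and the difference was 0.61 (standard error 0.14, 95% interval 0.28 to 0.94, adjusted p = 0.142, limma). A second probe set of nep-1 gave 1119, 1044 and 675 in hs::ΔNTbar-1, against 496, 482 and 447 in hs::control, also without overlap and with a difference of 0.94 (adjusted p = 0.139). The brighter probe set passed when dim probe sets were left out of the fit (adjusted p = 0.0354) and with a variance that follows the signal (0.013).

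nep-12 and nep-16 were the other nep genes above the dim range with all hs::ΔNTbar-1 arrays higher. nep-12 had signals of 259, 287 and 239 in hs::ΔNTbar-1, against 167, 177 and 213 in hs::control, and a log2 fold change of 0.46 (95% interval 0.13 to 0.79, adjusted p = 0.228, limma). nep-16 had 140.3, 129 and 139.5 in hs::ΔNTbar-1, against 115, 72.6 and 83.4 in hs::control, at 0.54 (95% interval 0.14 to 0.94, adjusted p = 0.247). The intervals of both leave out 0, and neither gene passed after adjustment. nep-14, listed as a pseudogene, had the highest log2 fold change of the family at 0.77 (adjusted p = 0.166), from signals of 23.8, 33.6 and 15.3 in hs::ΔNTbar-1, against 7.9, 5.2 and 8.6 in hs::control, all in the dim range.

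nep-2, a neprilysin known in C. elegans for the inactivation of a neuropeptide in olfactory plasticity, had signals of 193, 211 and 206 in hs::ΔNTbar-1, against 276, 259 and 287 in hs::control. The groups did not overlap, and the difference was -0.40 (95% interval -0.66 to -0.15, adjusted p = 0.189, limma). nep-17 overlapped between strains (3091, 3505 and 2653 in hs::ΔNTbar-1, against 3464, 4037 and 3877.5 in hs::control) at -0.30. nep-11 had overlapping groups at 724, 612 and 621 in hs::ΔNTbar-1, against 874, 758 and 722 in hs::control (difference -0.26), and its second probe set, at 425, 425 and 431 in hs::ΔNTbar-1, against 482, 480.4 and 469.5 in hs::control, did not overlap (difference -0.15). nep-21 was at 0.02 and -0.10 by its pair of probe sets, and nep-26 at 0.21, all with overlapping groups.

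The other 15 nep genes were nep-3 to nep-10, nep-13, nep-18 to nep-20 and nep-23 to nep-25. All had mean signals under 100, with single values from 2 to 84.5 in hs::ΔNTbar-1 and from 2.4 to 81.5 in hs::control. Their log2 fold changes ran from -0.64 for nep-23 to 0.63 for nep-6, and no group pair was free of overlap. nep-4 had the smallest difference of the family, 0.01, from signals of 8.9, 2.9 and 6.5 in hs::ΔNTbar-1, against 6.4, 2.5 and 9.1 in hs::control. The median SD within a strain on the log2 scale was 0.39 for members under 100 and 0.11 for members at 1000 or more, so for the 22 dim members only wide differences could be seen. Across all 25 nep genes 0 passed as higher and 1 as lower, with a median of 0.02.

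**Figure D3:**
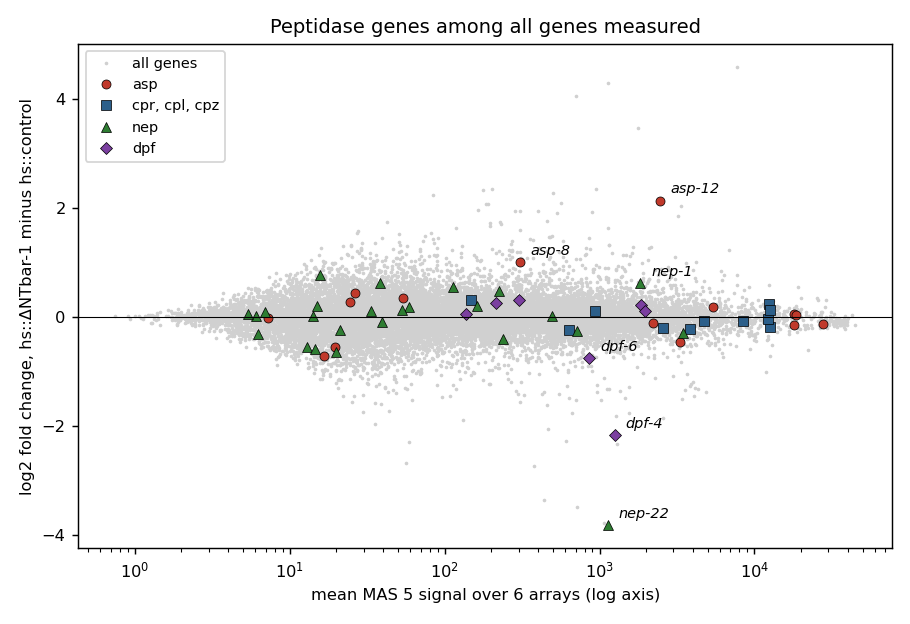
Log2 fold change, hs::ΔNTbar-1 minus hs::control, against mean MAS 5 signal over the 6 arrays (log axis) for all 17138 genes (grey) and the 58 peptidase genes (coloured by family). nep-22 lies lowest of all points at -3.82, dpf-4 (-2.18) and asp-12 (2.13) have few grey points near them, and most other peptidase genes lie within the grey band.

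Of the dpf family, 1 of 7 genes passed as lower and 0 as higher (0 at an unadjusted p of at most 0.05 and 0 by the study's criteria), with a median of 0.10. dpf-4 (F01F1.5) had signals of 419, 403 and 511 in hs::ΔNTbar-1 replicates 1, 2 and 3, against 2193, 2122 and 1863 in hs::control replicates 1, 2 and 3. The strains lay far apart, with the third array nearest to the other strain in both. The means were 444 ± 58.4 in hs::ΔNTbar-1 and 2059 ± 174 in hs::control (SD, n = 3 arrays each), a log2 fold change of -2.18 (standard error 0.14, 95% interval -2.51 to -1.84, adjusted p = 0.00468, limma), or 4.52-fold lower. The call held with each array left out, at adjusted p values up to 0.0405.

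dpf-6 (F44B9.1) lay below in the same way, with signals of 675, 565 and 658 in hs::ΔNTbar-1, against 1145, 998 and 1109 in hs::control. The groups did not overlap, and the log2 fold change was -0.76 (standard error 0.12, 95% interval -1.06 to -0.47, adjusted p = 0.0648, limma), just outside the threshold. It passed when dim probe sets were left out of the fit (0.011), with a variance that follows the signal (0.00357) and with a pseudocount of 64 (0.0198).

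The other 5 dpf genes had differences of 0.05 to 0.30. dpf-3, the DPP8/9-like member that acts on Argonaute proteins of the C. elegans germ line, had signals of 1964, 1885 and 2055 in hs::ΔNTbar-1, against 1464, 2136 and 1539 in hs::control. Its groups overlapped at 0.22 (95% interval -0.19 to 0.62), with the second hs::control array above all others. dpf-5, which lies near dpf-7, had 2031, 2043 and 1979 in hs::ΔNTbar-1, against 1911, 1860.2 and 1885.5 in hs::control, without overlap, at 0.10 (95% interval -0.14 to 0.33). dpf-1, dpf-2 and dpf-7 had means of 138.5, 235 and 332 in hs::ΔNTbar-1, against 135, 194 and 269.6 in hs::control, and their 95% intervals held 0.

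**Figure D4:**
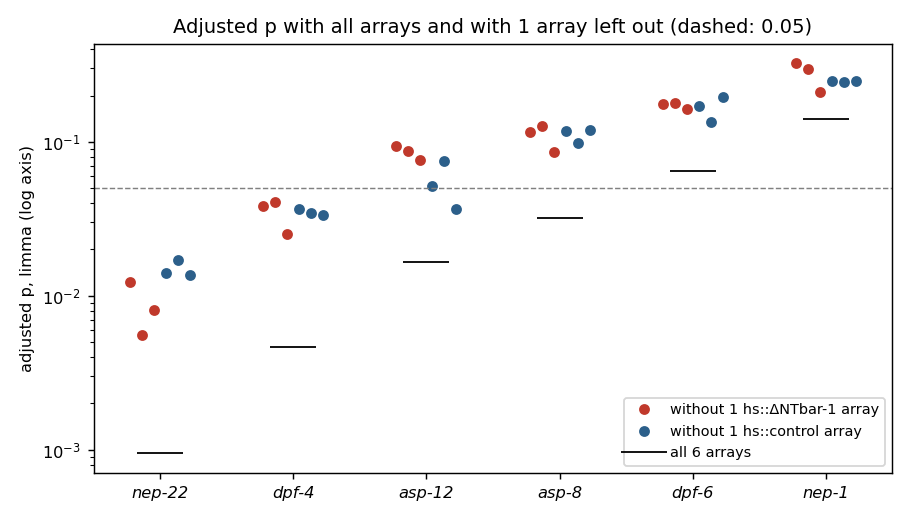
Adjusted p from limma (log axis) of 6 peptidase genes with all 6 arrays (black dash) and with each array left out (red: 1 hs::ΔNTbar-1 array left out; blue: 1 hs::control array left out; dashed line at 0.05). nep-22 and dpf-4 stay under the line in all 6 fits, asp-12 in 1 and asp-8, dpf-6 and nep-1 in none.

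Many members lie beside each other on the chromosomes, and the genes that changed had neighbours that did not pass. Gene order was taken from RefSeq, and 23 members lie in 7 runs in which a member is at most 5 genes from another, while 35 stand alone. asp-12 lies between asp-6 and asp-5, with the pseudogene asp-11 beyond asp-5. asp-12 was at 2.13, while asp-6 was at 0.04, asp-5 at -0.15 and asp-11 at -0.72, and none of these 3 passed (adjusted p = 0.912, 0.667 and 0.593, limma). asp-8 lies beside asp-7, whose signals were 40, 41.2 and 4.1 in hs::ΔNTbar-1, against 2.1, 38.2 and 21.4 in hs::control. These overlapped widely (difference 0.27, standard error 0.55). The next gene, irld-38, had dim signals without overlap, at 0.50, and did not pass (adjusted p = 0.247).

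nep-22 lies between snf-12, at -0.19, and T25B6.1, at -0.58. T25B6.1 had mean signals of only 2.63 in hs::ΔNTbar-1 and 12.5 in hs::control, without overlap (adjusted p = 0.321, limma). dpf-4 lies between alh-9, an aldehyde dehydrogenase gene, and dnpp-1, an aspartyl aminopeptidase gene. alh-9 was at 0.08, and dnpp-1 at -0.27, with means of 4205 in hs::ΔNTbar-1 and 5079 in hs::control and no overlap (adjusted p = 0.337). The longest run is 8 nep genes, nep-19, nep-20, nep-9, nep-10, nep-8, nep-7, nep-6 and nep-11, of which 7 had mean signals under 100 and none passed (lowest adjusted p = 0.393, that of nep-9).

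**Figure D5:**
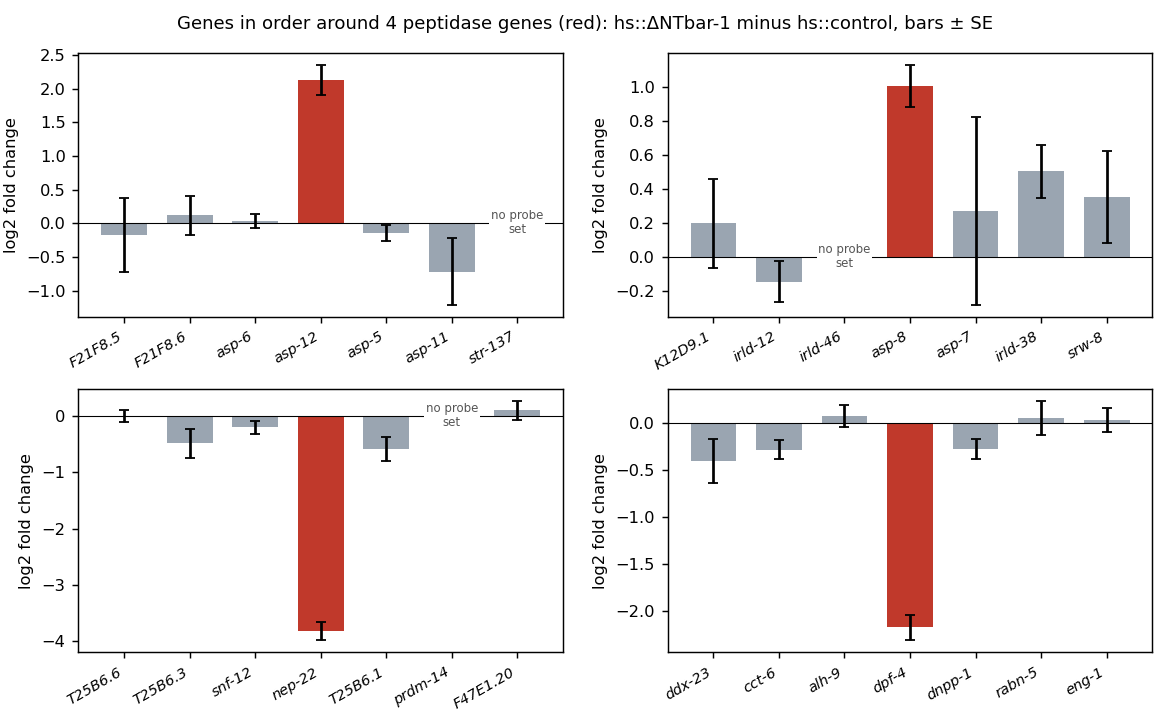
Log2 fold change (bars, ± standard error) of 4 peptidase genes (red) and of up to 3 genes on each side in RefSeq gene order (grey), hs::ΔNTbar-1 minus hs::control; the vertical axes differ between panels, and genes without a probe set of their own are marked. asp-12, nep-22 and dpf-4 stand far from their neighbours, and asp-8, at 1.0, is nearest to irld-38, at 0.50.

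The wider machinery of protein breakdown in the lysosome and the gut had no gene that passed limma's test or met the study's criteria. Of the V-ATPase subunits, the proton pump that acidifies lysosomes, 19 of 21 were measured, with a median of -0.06. At an unadjusted p of at most 0.05, 0 were higher and 2 lower, where 7.25% of all genes were higher and 6.69% lower. By sign, 6 were above 0 and 13 below. Without overlap 1 lay above and 5 below, where this held for 11% and 10.5% of all genes. 17 of the 19 had a mean signal of at least 1000, where 444 of 2554 genes lay above without overlap and 543 below. The lowest was vha-4, at 7144, 6829 and 6649.8 in hs::ΔNTbar-1, against 8421, 8361 and 8818 in hs::control, without overlap (difference -0.31, adjusted p = 0.263, limma). Of 19 other lysosomal genes 14 were measured, with a median of 0.05. At that unadjusted p 1 was higher and 1 lower, beside the same shares of all genes, and 2 lay above and 1 below without overlap. Among the 14, nuc-1, a lysosomal DNase gene, was at -0.34 and asah-1, an acid ceramidase gene, at 0.29, both without overlap.

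The 20 other exopeptidase and peptide transporter genes measured had a median of -0.03. At an unadjusted p of at most 0.05, 4 of the 20 were higher and 4 lower, where 7.25% of all genes were higher and 6.69% lower. 6 lay above and 5 below without overlap, where this held for 11% and 10.5% of all genes. pept-1, the gut transporter that takes up di- and tripeptides, had signals of 3083, 2814.5 and 2253 in hs::ΔNTbar-1, against 4374, 4514 and 3759.9 in hs::control, without overlap. Its difference was -0.64 (95% interval -1.02 to -0.26, adjusted p = 0.17, limma). pcp-3, of the prolylcarboxypeptidase family, was at -0.63 (adjusted p = 0.168), and lap-2, a leucine aminopeptidase gene, at 0.40 (adjusted p = 0.198).

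Heat shock gene signals differed between arrays within each strain. Of 9 heat shock genes listed 3 were measured (hsp-16.2, hsp-16.41 and hsp-70), and none passed limma's test, met the study's criteria or had an unadjusted p of at most 0.05. The mean of all 3 was higher in hs::ΔNTbar-1 animals, with log2 fold changes of 0.72 for hsp-16.2 (adjusted p = 0.537, limma), 0.57 for hsp-16.41 (adjusted p = 0.419) and 0.60 for hsp-70 (adjusted p = 0.882), and their groups overlapped. hsp-70, a heat-inducible chaperone gene, had signals of 134, 1546 and 269 in hs::ΔNTbar-1, against 1384, 98.5 and 103.8 in hs::control, so that hs::ΔNTbar-1 replicate 2 and hs::control replicate 1 were far above the others of their strain. hsp-16.41 was instead highest on replicate 3 of each strain (11760 in hs::ΔNTbar-1 and 7347 in hs::control). hsp-16.2 was highest on the same 2 arrays as hsp-70 (6172 in hs::ΔNTbar-1 and 5148 in hs::control). asp-12 was also highest on these 2 arrays within each strain, and the part of the heat response in its level was not tested. The asp-12 signals of the strains did not overlap. nep-22 on the same 2 arrays had the lowest signal of its strain in both.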

How the data were processed

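RNA of whole larvae was measured on 6 Affymetrix C. elegans genome arrays, 3 of hs::ΔNTbar-1 and 3 of hs::control, grouped by the sample labels. The methods give growth at 20° for 24 hr, a heat shock of 38° for 30 min, 60 min of recovery and 5 µg of RNA, and the labels give 30° and 6 µg.

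The authors deposited 1 table of signal intensity for 22625 probe sets. MAS5 and Partek are the tools in the submitters' processing notes, and the methods name MAS 5 for detection calls and RMA in Partek for statistics. The values are linear with a trimmed mean of 500.2 on each array and were read as MAS 5 signal. The genome build is not given in the sources used here. Of its columns 0 belong to other samples, and no pair of arrays had more than 0.297% identical values.

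After 77 Affymetrix controls were left out, 22548 probe sets were tested as log2(signal + 16) in R 4.3.3 with limma 3.58.1 (lmFit, then eBayes; two-sided), with Benjamini-Hochberg adjustment over all of them. These p-values measure only the spread between the samples. 20766 probe sets name 1 gene, and 20701 of these, with all 58 members, matched the RefSeq table of WBcel235, used for names, gene order and pseudogenes. The primer sequences are the study's, and 1 further pair is not reported here. Protein and promoter sequences were not used here. The steps were tested on simulated arrays.

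Named genes were members that passed either test, those that changed at least 1.5-fold without overlap, those with the largest and smallest change in each family, those that the paper lists, and those with known roles. Other members were named after their values were seen. Members, lists and tests were chosen with earlier results of these data known. Alternatives were quantile normalization, centring on the array median, pseudocounts of 1 and 64, a fit without probe sets below the 40th percentile of signal or without those able to bind several transcripts, a trended and robust variance, analysis of variance, an average over each gene's probe sets, symbols from RefSeq, the replicate number as a block, and each array left out.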

Additional observations from a re-analysis of the deposited data

How the results depend on the processing

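The lower calls of nep-22 and dpf-4 held under each alternative run except the replicate block and, for nep-22, leaving out probe sets able to bind several transcripts, which removed its only probe set and left 1 lower call. The 2 higher calls became 1, asp-12, after centring on the median and with a pseudocount of 1, where asp-8 had adjusted p values of 0.0572 and 0.0587. They became 0 with analysis of variance and Benjamini-Hochberg adjustment (9 at an unadjusted p of at most 0.05). With 1 array left out the higher calls numbered 0 to 1 and the lower calls 2 to 2. At least 2-fold by the study's criteria, the 2 higher members became 1 with quantile normalization, with centring and with a pseudocount of 64, and 3, with nep-14, with a pseudocount of 1 and as a ratio of mean signals. With 1 array left out they numbered 1 to 2, and without hs::control replicate 3 the 2 were asp-12 and nep-6, not asp-8. The 2 lower members became 3, with nep-23, without hs::control replicate 1 and numbered 2 in the other settings. The members without overlap between the strains numbered 9 to 14 as higher and 9 to 14 as lower with 1 array left out, where smaller groups overlap less often by construction.

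The replicate numbers were not treated as pairs, since deviations from the group means of arrays with the same number did not all correlate above 0.1 across probe sets and the labels give the number no further meaning. For numbers 1, 2 and 3 the correlation was 0.07, -0.02 and 0.06, and with arrays of other numbers it was at most 0.02, 0.03 and -0.0039, so that numbers 1 and 3 correlated best with their own. With the replicate number as a block, 0 members passed as higher and 0 as lower (6 and 6 at an unadjusted p of at most 0.05), with adjusted p values of 0.0522 for nep-22, 0.111 for dpf-4, 0.118 for asp-12 and 0.166 for asp-8. The block takes 2 of the 4 residual degrees of freedom of the fit.

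6 named members changed sign, all of them far from the threshold. With 1 array left out, log2 fold changes ran from -0.173 to 0.0902 for asp-17, -0.0709 to 0.0154 for cpr-4, -0.111 to 0.117 for nep-4, -0.0733 to 0.187 for dpf-1, -0.0112 to 0.0767 for asp-6 and -0.208 to 0.0417 for cpr-6. asp-17 was also at 0.0196 with quantile normalization, nep-4 at -0.0216 after centring and asp-6 at -0.0087 as the mean of its probe sets. Over the 22 members named by rule, the other alternatives gave 216 values on the same side of the threshold, 8 that lost a call, 5 that gained one and 3 with the other sign. Only asp-12, asp-8, nep-22 and dpf-4 had a call to lose, so all 8 lost calls were theirs. With 1 array left out 11 calls were lost, all of them of asp-12 and asp-8. The cause of these shifts was not tested. For the 22 members under 100 the spread within a strain limits which differences could be seen.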
